A study of Mus musculus with 15 samples.

Results

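Of 13559 mouse promoters with high nucleosome coverage, 107 (0.789%) were called as holding a nucleosome-depleted region (NDR) in pooled libraries of fibroblasts and a filled one in those of dendritic cells (DCs). They were chosen by the NDR ratio, which is the mean nucleosome occupancy between -150 bp and the transcription start site (TSS) divided by the mean occupancy of the upstream flank between -1000 and -500 bp. A promoter was a member if its ratio was under 0.5 in both pooled fibroblast libraries and above 0.9 in both pooled DC libraries. High coverage means a coverage score above 100, and 25881 promoters were listed in all. The members were 107 TSSs of 103 gene names, with a pair of TSSs each at Plpp1, Krit1, Rab34 and H2bc23. In 8 cases another member lay within 1 kb, namely the first 3 of these pairs and the divergent pair Fbxo38 and Spink10. In 13 cases the transcript was noncoding. A TSS of the opposite strand lay within 1 kb of 27 members.

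Nucleosome positions were measured by ChIP-MNase, in which chromatin recovered with an antibody is cut by micrococcal nuclease down to single nucleosomes. There were 15 libraries. The 4 pooled H3K4me1 libraries, which each combine a pair of replicates, came from DCs grown with GM-CSF out of bone-marrow-derived progenitor lines, non-stimulated or given LPS (100 ng/ml, 1 h), and from 3T3 fibroblasts, non-stimulated or given TNF-α (5 ng/ml, 1 h). The other 11 libraries were all from 3T3 fibroblasts, an established embryonic line. In 8 of them H3K4me1 chromatin was taken from control cells or from cells with a stable shRNA against both Brg1 and Brm, the ATPases of the BAF remodelling complex (BAF knock-down), non-stimulated or after TNF, with 2 replicates each. In the last 3, chromatin of cells given TNF was recovered through pol-II phosphorylated at serine 7 (S7P, 2 replicates) or at serine 5 (S5P, 1 library). No DC library lay outside the rule, so the DC part of the choice could not be looked at again.

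At an active promoter, the stretch just upstream of the TSS is usually kept free of nucleosomes by bound transcription factors, by chromatin remodellers and by DNA sequences that bend poorly around histones. The first nucleosome downstream, called +1, then sits at a fixed place, and those after it follow in a regular array. CpG-island promoters, which serve many housekeeping genes, often hold an NDR in every cell type, whereas a closed promoter can have a nucleosome over its TSS.

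The upstream windows of 8 members are shown because they hold the range of what the other libraries gave: 6 with a median ratio under 0.5 in the 11 fibroblast libraries outside the rule (Plpp1, Dtl, Zfp280c, Gcnt4, Tcp1 and Col6a1) and 2 with a median above 0.9 (Ciita and Zdhhc6). Each runs 5′ to 3′ on the strand of the gene over the 150 bases before the TSS, in mm9 coordinates. Capitals mark matches on either strand to the motif letters searched (TATAAA of TBP, CCAAT of NF-Y, GGGCGG of SP1, TGANTCA of AP-1, CATTCCA of TEAD, CGGAAG of ETS factors, TGACGT of CREB/ATF, TGTGGT of RUNX and the CArG box of SRF). These 8 were picked after their values were seen.
Plpp1 (chr13:113590851-113591000, plus strand): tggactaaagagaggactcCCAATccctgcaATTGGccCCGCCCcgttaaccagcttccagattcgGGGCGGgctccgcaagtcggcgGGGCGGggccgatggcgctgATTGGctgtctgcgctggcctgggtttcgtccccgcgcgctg
Dtl (chr1:193399414-193399563, minus strand): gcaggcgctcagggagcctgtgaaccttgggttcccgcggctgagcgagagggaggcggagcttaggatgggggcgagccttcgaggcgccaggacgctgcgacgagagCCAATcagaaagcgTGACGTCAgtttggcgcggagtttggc
Zfp280c (chrX:45947551-45947700, minus strand): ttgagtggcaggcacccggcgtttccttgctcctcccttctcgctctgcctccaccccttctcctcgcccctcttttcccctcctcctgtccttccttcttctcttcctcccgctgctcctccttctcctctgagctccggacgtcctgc
Gcnt4 (chr13:97694495-97694644, plus strand): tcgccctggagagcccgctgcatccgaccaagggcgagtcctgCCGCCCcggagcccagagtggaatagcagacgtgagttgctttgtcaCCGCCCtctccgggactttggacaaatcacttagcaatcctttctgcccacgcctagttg
Tcp1 (chr17:13109182-13109331, plus strand): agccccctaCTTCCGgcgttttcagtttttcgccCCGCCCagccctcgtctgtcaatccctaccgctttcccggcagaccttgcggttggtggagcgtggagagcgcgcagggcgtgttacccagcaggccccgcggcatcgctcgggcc
Col6a1 (chr10:76188790-76188939, minus strand): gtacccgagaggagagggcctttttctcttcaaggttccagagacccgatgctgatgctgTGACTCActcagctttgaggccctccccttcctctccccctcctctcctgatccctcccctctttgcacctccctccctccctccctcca
Ciita (chr16:10480016-10480165, plus strand): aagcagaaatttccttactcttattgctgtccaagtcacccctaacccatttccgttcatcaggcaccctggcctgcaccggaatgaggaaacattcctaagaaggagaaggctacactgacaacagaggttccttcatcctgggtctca
Zdhhc6 (chr19:55390523-55390672, minus strand): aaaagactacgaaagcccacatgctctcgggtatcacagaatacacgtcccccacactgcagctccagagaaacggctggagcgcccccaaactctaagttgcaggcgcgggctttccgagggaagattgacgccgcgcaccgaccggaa

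All 8 windows end at the base before the annotated TSS. The TSS of Ints7 is within 1 kb of Dtl, that of Mrpl18 within 1 kb of Tcp1 and that of Vti1a within 1 kb of Zdhhc6. The Plpp1 window held 3 matches each to CCAAT and GGGCGG, the letters bound by NF-Y and SP1, and was one of 6 shown that met the CpG-island criterion. The Dtl window held a CCAAT and a TGACGT match, the latter part of a palindrome that also reads TGACGT on the other strand. The Col6a1 window had 2 CG pairs, no CpG island and 1 TGANTCA match, the letters of AP-1. Neither Zfp280c, Ciita nor Zdhhc6 held any of the motifs.

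In the pooled libraries the members differed as the rule demands, and these values are a description. Their median NDR ratio was 1.19 in non-stimulated DCs and 1.21 after LPS, against 0.208 in non-stimulated fibroblasts and 0.165 after TNF. Over all high-coverage promoters the same medians were 0.647, 0.615, 0.633 and 0.590. The mean profile of the members in non-stimulated fibroblasts had its lowest point at -75 bp (occupancy 0.203) and a +1 peak at 135 bp (2.89), a shape close to that of promoters depleted in both cell types (0.153 at -75 bp and 3.18 at 135 bp). In DCs the same promoters had a peak inside the window instead, of 2.12 at -45 bp in non-stimulated cells and of 2.32, further upstream, after LPS. At the edge of the rule, Dcaf4, a substrate receptor of a cullin ubiquitin ligase, was just inside, with 0.403 and 0.4995 in fibroblasts and 1.48 and 1.01 in DCs, as was the transcript NM_175528 (0.498 and 0.407 in fibroblasts, 0.967 and 0.930 in DCs). Pcolce, an enhancer of procollagen processing, was just outside with 0.8998 in DCs after LPS, and Nprl3, a part of the GATOR1 complex, with 0.501 in fibroblasts after TNF.

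**Figure D1:**
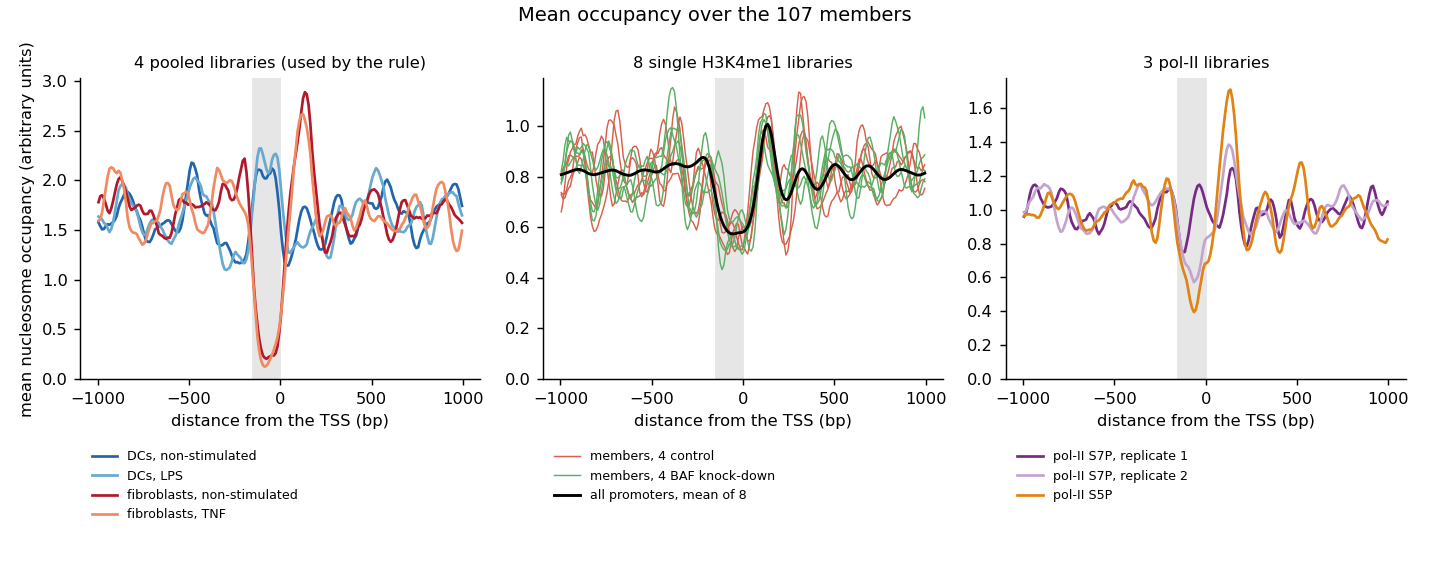
Mean nucleosome occupancy (y axis, arbitrary units set by the authors' normalization, with a different range in each panel) of the 107 members by distance from the TSS in bp (x axis), in the 4 pooled libraries that chose them, the 8 single H3K4me1 libraries (1 line each, with the mean of all high-coverage promoters in black) and the 3 pol-II libraries. The grey band is the window of the NDR ratio. The gap between cell types in the first panel is set by the rule, and in the middle panel the members' lines lie around the black line.

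In the 11 fibroblast libraries that the rule did not use, the members were depleted about as often as promoters in general. Of members with a value, between 25.2% and 61.3% had a ratio under 0.5, with a mean of 43.6% ± 10.2 (SD, n = 11 libraries). The background over all high-coverage promoters was 34.8% and 44.5% in the non-stimulated control libraries, 36.1% and 44.7% in the control libraries after TNF, 35.3% and 37.5% in non-stimulated BAF knock-down cells and 43.5% and 43.8% in BAF knock-down cells after TNF. The members' shares in the same 8 libraries, in the same order, were 40.0%, 49.5%, 37.1%, 52.4%, 38.1%, 39.4%, 52.4% and 48.6%. They were thus above the background in all 8, by a mean of 4.67 percentage points ± 2.71 (SD). In the pol-II libraries the members stood at 25.2% and 35.5% for S7P and 61.3% for S5P, against a background of 38.2%, 35.0% and 52.3%. S7P replicate 1 was the 1 library of 11 with fewer depleted members than the background. Over all 11 the members exceeded the background by 3.08 points ± 6.09, and by 4.68 points without S7P replicate 1. These shares are a description, since promoters are not replicates and no test was made over the list.

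The other groups cut by the same thresholds put this into scale. Promoters depleted in both cell types (2378) had a ratio under 0.5 in a mean of 66.4% of cases over the 11 libraries, and the members lay below them in all 11, with a mean difference of -22.8 points ± 4.65. Promoters depleted in neither (1046) reached 18.9%, and the members were above them in 10 of 11 libraries by a mean of 24.7 points ± 13.5. The mirror group, the 109 promoters depleted in DCs only, reached 32.8%. The members were above it in 10 of 11 libraries by a mean of 10.8 points ± 9.24, with S7P replicate 1 again the exception.

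**Figure D2:**
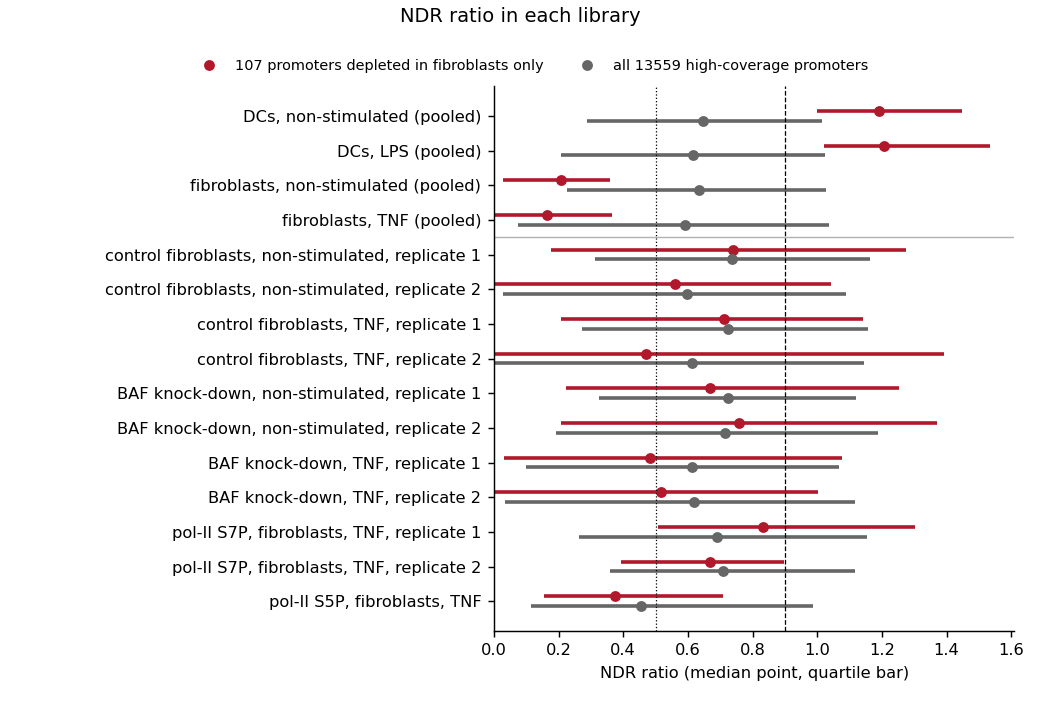
NDR ratio (x axis, no unit) in each of the 15 libraries (y axis) for the 107 members in red and all 13559 high-coverage promoters in grey, with points for the median and bars for the quartiles. The dotted and dashed lines mark 0.5 and 0.9, and the 4 rows above the grey line chose the members. Below that line the members' median lay between 0.375 and 0.833 and their bars overlap those of all promoters in each library.

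Taken TSS by TSS, 40 of the 107 members (37.4%) had a median ratio under 0.5 over the 11 libraries, against a background of 36.4%. A further 41 members lay between 0.5 and 0.9, and 26 (24.3%) were above 0.9, against 29.7% of all promoters. At least 8 of the 11 libraries were under 0.5 for 20 members (18.7%, background 17.5%), and no member was under 0.5 in all 11. The ratio of a member also moved more between libraries: the median SD over the 8 single H3K4me1 libraries was 0.598, against 0.481 for all promoters and 0.401 for those depleted in both cell types. Among members the NDR window held no fragment in 5.61% to 34.6% of cases per library, and 8.72% to 26.2% of all promoters had an empty window.

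**Figure D3:**
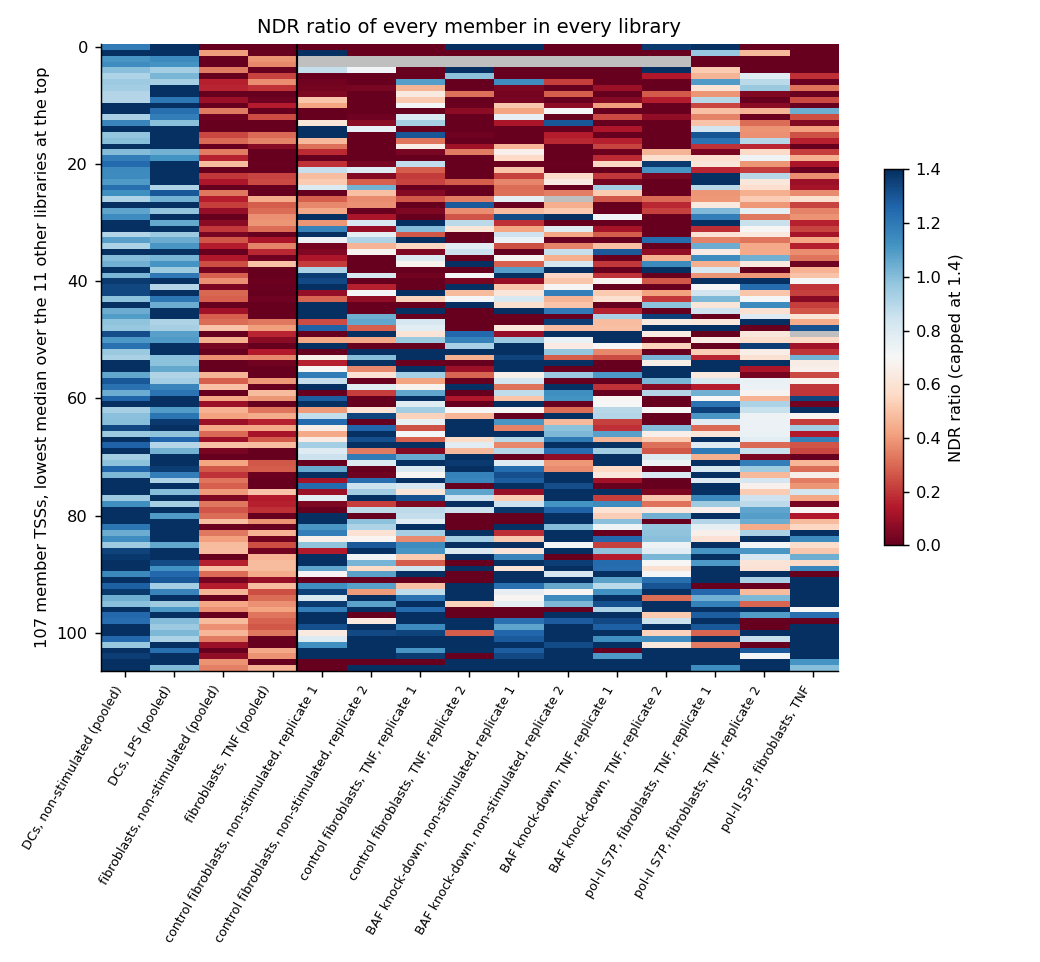
NDR ratio (colour, 0 to 1.4 and capped there) of every member TSS (y axis, ordered by its median over the 11 libraries outside the rule) in each of the 15 libraries (x axis), with grey where the flank was empty. The 4 columns left of the black line chose the members and are uniform, while in the 11 columns to its right red and blue cells mix down to the last rows, with 40 members at a median under 0.5 and 26 above 0.9.

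Libraries of the same cells also differed from each other. Replicates of the same condition gave opposite calls, under 0.5 in the first and above 0.9 in the second or the reverse, for 17.5% to 21.3% of high-coverage promoters (5 pairs). In the BAF knock-down pairs, the first replicate was also named with another amount of MNase. A pooled fibroblast library and a control library of the same state did so for 16.4% to 19% (4 pairs). Between the pooled DC and fibroblast libraries the share was 11.5% to 13.0% (4 pairs), and between the states of the same cell type, also pooled, 9.89% and 10.6%. The pooled libraries combine 2 replicates each. They held a signal in 82.0% to 90.2% of bins at high-coverage promoters, against 63.6% to 78.1% in single H3K4me1 libraries. Shares and correlations of pooled libraries are therefore not directly comparable with those of single ones. Across promoters, the Spearman correlation was 0.249 to 0.377 between replicates and 0.469 to 0.487 between pooled cell types, which describes libraries that share genes and base composition. Members also had lower coverage, with a median score of 154 against 201 for all. They were 1.26% of promoters with a score from 100 to 150, 0.706% from 150 to 300 and 0.407% above 300, whereas the promoters depleted in DCs only made up 0.714%, 0.861% and 0.813% of the same classes. The part of coverage in the choice of members was not tested.

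Plpp1 was one of 3 members under 0.5 in 10 of the 11 libraries, and is a phosphatase of lipid phosphates at the cell surface. Its ratio at the TSS shown above was 0 in both pooled fibroblast libraries, and 0.905 and 1.63 in DCs. In control fibroblasts it was 0.0478 and 0 before and 0.639 and 0.315 after TNF, and in BAF knock-down cells 0.0311 and 0.274 before and 0 and 0.269 after TNF. The pol-II libraries gave 0.393 and 0.0514 (S7P) and 0.00609 (S5P). The exception was control cells after TNF, replicate 1. The next Plpp1 TSS, also a member, had a median of 0.680 and was under 0.5 in 5 of 11. The other members under 0.5 in 10 of 11 were Parn, a nuclease that trims poly(A) tails, and Spink10, beside Fbxo38.

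The other members with the lowest medians were of mixed function. Dtl, the receptor through which the CRL4 ubiquitin ligase destroys replication licensing factors, had a ratio of 0 in 7 of the 8 single H3K4me1 libraries and 2.47 in the control library non-stimulated, replicate 1. Zfp280c, a zinc-finger protein, ranged from 0 to 0.986, and Gcnt4, a glycosyltransferase of mucin-type glycans, from 0 to 0.962, each with 9 of 11 libraries under 0.5. So did Fbxo38 (median 0.0742), an F-box protein, Igsf9 (0.0748), an adhesion protein of the immunoglobulin family, and Tvp23a (0.0814). Miga2, a mitochondrial fusion protein, had a median of 0.0552 and 8 libraries under 0.5. Trp53rka (0.0222), a kinase of the KEOPS complex, and Fam78b (0) had 7 and Dmwd (0) had 6. Fam78b, with a median of 0, reached 5.18 in BAF knock-down cells, non-stimulated, replicate 1. H2bc23, a histone H2B gene with a pair of member TSSs, had a value in the 3 pol-II libraries alone. Histone genes have near-identical copies, and per the methods a fragment was kept only if it had a single place among promoter regions. The effect of this on H2bc23 was not tested.

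At the other end, Ciita, the master regulator of MHC class II genes, had a ratio above 0.9 in 9 of the 11 fibroblast libraries. It had 0.0769 and 0.387 in the pooled fibroblast libraries. In control cells its ratio was 2.48 and 3.02 before and 1.36 and 0 after TNF, in BAF knock-down cells 1.33 and 1.88 before and 1.10 and 2.46 after TNF, and in the pol-II libraries 1.67, 0.714 and 1.71. Its median of 1.67 over these libraries lay between its values of 1.36 in non-stimulated DCs and 1.88 after LPS. Zdhhc6, a palmitoyltransferase, had a median of 1.52 with 1 library under 0.5. The 3 other highest medians were those of H2bc13 (1.70), another H2B gene, the small nucleolar RNA Snora70 (1.77) and the noncoding 9530080O11Rik (1.47). Snora70 ranged from 0 to 14.98, and copies of its sequence elsewhere make the value uncertain.

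The members were next set beside gene expression in non-stimulated cells, which the rule did not use. Per the methods, these values come from public RNA data of each cell type, not from the cultures profiled here. Active promoters were those whose value exceeded the cell-type mean multiplied by 0.02, a limit of 0.0507 in DCs and 1.596 in fibroblasts in the expression units of the authors. The scales of both cell types differ, so that levels are compared only within a cell type. The marker genes followed the cell-type labels. All 7 DC markers, among them Cd74 and Itgax, lay at or above the 72.7 percentile in DCs and at or below the 61.04 percentile in fibroblasts, with Cd86 at 0, and Col1a1, Col1a2, Col3a1 and Thy1 lay at or above the 98.6 percentile in fibroblasts. Fn1 and Vim, on the fibroblast list, were at or above the 99.3 percentile in both, and Pdgfrb was at the 61.9 percentile in fibroblasts.

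Of the members, 17 (15.9%, 95% Wilson interval 10.2 to 24.0, counting error only) were active in fibroblasts and not in DCs, against 7.14% of all high-coverage promoters. Those active in both numbered 37 (34.6% against 40.5%), those active in DCs and not in fibroblasts 24 (22.4% against 21.3%) and those active in neither 29 (27.1% against 31.1%). With activity called above 0.1 times the mean, 10 members (9.35%) were active in fibroblasts only, against 4.64%. With a coverage score above 200, 4 of 38 members were, against 7.77%. The median expression of the members was 1.70 in fibroblasts and 0.0960 in DCs, and over all promoters 1.22 and 0.242.

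Among the 17 members active in fibroblasts and not in DCs, 12 (70.6%, Wilson interval 46.9 to 86.7, counting error only) had a median ratio under 0.5 in the libraries outside the rule, against 31.7% of all 968 promoters of that class. The shares by class are a description, since TSSs are not replicates. The 17 were also chosen for low ratios in the pooled fibroblast libraries, whereas their class was not. For members active in both the share was 14 of 37 (37.8%, against 55.5%), for those active in DCs only 7 of 24 (29.2%, against 28.5%) and for those active in neither 7 of 29 (24.1%, against 18.2%). Library by library, the members of the first class were above their class in 9 of 11 libraries, by a mean of 18.2 points ± 17.4, whereas those active in both were above theirs in 1 of 11. The exceptions in the first class were both S7P libraries. There 11.8% and 29.4% of these members were under 0.5, against 34.4% and 34.3% of the class. With the threshold of 0.1 times the mean, 5 of 10 members (50%) had a median under 0.5, against 34.5%. With a coverage score above 200, 2 of 4 did, against 28.4%.

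**Figure D4:**
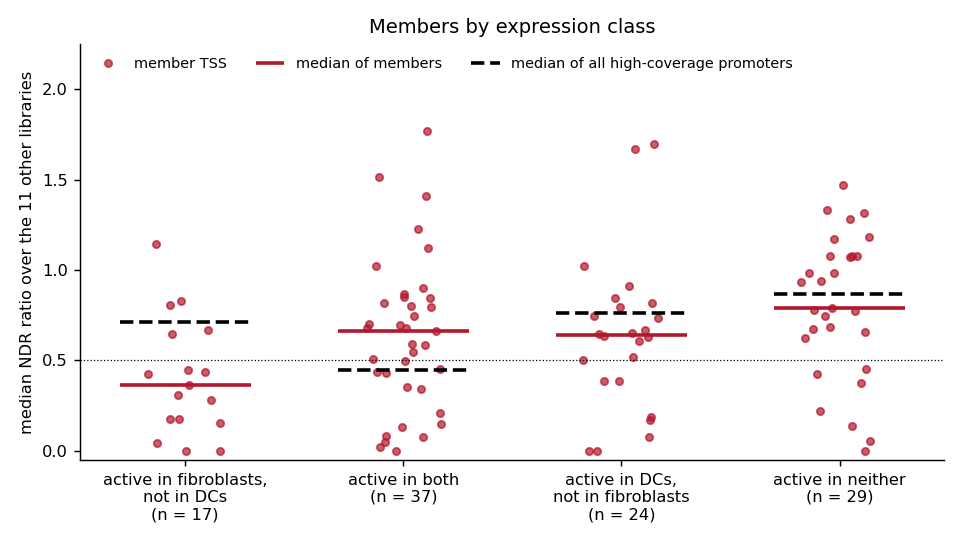
Median NDR ratio over the 11 libraries outside the rule (y axis, no unit) of each member TSS (red points) by its expression class (x axis, with the number of members), with red lines for the median of the members and dashed black lines for that of all high-coverage promoters of the class. In the first class 12 of 17 points lie under the dotted line at 0.5, and the medians are 0.364 for members and 0.713 for the class.

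The 12 were Dmwd, Zfp280c, Gcnt4, Arhgef10, Dync2li1, Exog, Plekhh2, Septin5, Rnf122, Irx5, Col6a1 and Erbb2. Col6a1, which encodes a chain of the microfibrillar collagen VI, had the highest fibroblast expression of all members (246, and 0.0160 in DCs). Its ratio was 0.150 and 0.351 in the pooled fibroblast libraries, and 0.923 and 1.11 in DCs. In control cells it was 0.0325 and 0.463 before and 0.555 and 0.778 after TNF, in BAF knock-down cells 0.247 and 0.354 before and 0.489 and 0 after TNF, and in the pol-II libraries 1.05, 0.434 and 0.154. It was under 0.5 in 8 of 11 libraries. Erbb2, a receptor tyrosine kinase, had a fibroblast expression of 6.89, a median of 0.450 and 7 libraries under 0.5. Dync2li1, a light intermediate chain of the dynein of cilia, was listed at 0 in DCs and at 19.5 in fibroblasts, and its ratio was under 0.5 in 9 of 11 libraries. Arhgef10, a guanine nucleotide exchange factor, was also under 0.5 in 9, though both S7P libraries gave 1.22 and 0.902. The 5 others of the class were Rab34 (0.644), Mxra7 (0.667), Crls1 (0.809), Dcaf4 (0.831) and the microRNA gene Mir1907 (1.14), with their medians in brackets.

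**Figure D5:**
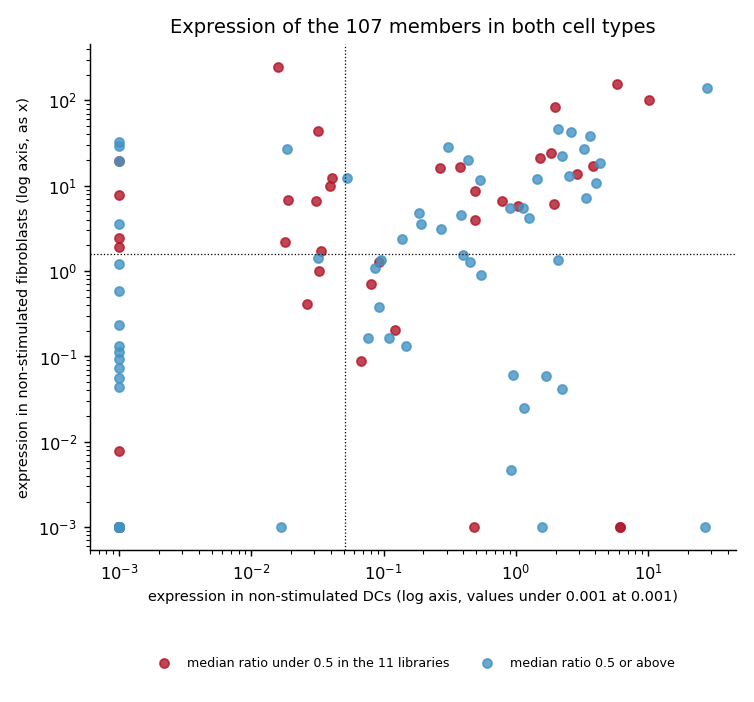
Expression of each member TSS in non-stimulated DCs (x axis) and fibroblasts (y axis), both in the authors' units on log axes, with values under 0.001 drawn at 0.001 and dotted lines at the activity thresholds. Red points had a median NDR ratio under 0.5 in the 11 libraries outside the rule. In the upper left part, active in fibroblasts and not in DCs, 12 of 17 points are red.

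The next 5 members by fibroblast expression, Tcp1, Snora70, Pcbp1, Rhoc and Bud31, were active in both cell types. Tcp1, a subunit of the chaperonin that folds actin and tubulin, had a fibroblast expression of 155 and a DC expression of 5.81. Its ratio was 0 in both pooled fibroblast libraries and under 0.5 in 8 of the 11 others, with 0.613, 0.934 and 1.30 in the remaining 3. The GTPase Rhoc (83.8) and the RNA-binding Pcbp1 (101) had medians of 0.429 and 0.435 with 6 libraries each under 0.5. Bud31, a splicing factor (46.8), had a median of 0.846 and 2 libraries under 0.5. In DCs the highest levels belonged to Snora70 (27.9), H2bc13 (27.0), Pcbp1 (10.2) and H2bc23 (6.16), and the last of these and H2bc13 were listed at 0 in fibroblasts.

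Lists of fibroblast genes, matched by symbol or by its start, were read against the 0.789% of all high-coverage promoters that were members. Of 48 high-coverage promoters of matrix and secreted genes, 1 was a member (Col6a1, 2.08%), 3 were depleted in both cell types and 3 in neither. On the list of adhesion and cytoskeleton genes none of 138 promoters was a member, and on that of growth factors and their receptors none of 73. These lists are not complete, since Igsf9 and Erbb2 are on neither. Of 140 promoters of homeobox and mesenchymal transcription factor genes 3 were members (2.14%). Irx5, an Iroquois homeobox gene with a fibroblast expression of 2.46 and 0 in DCs, had a median ratio of 0.428, and Tbx4, a T-box gene of the hind limb, had 0.660 and next to no expression. Pax6os1, matched by the start of its symbol, is a noncoding RNA antisense to Pax6 and had 1.08. Msx1, a homeobox gene outside the list that was picked after its values were seen, had 0.423 and was listed at 0 in both cell types. No promoter of the 123 on the myeloid list was a member. On that list 3 (Ptprc, Cd86 and Clec4n) were depleted in DCs only, 6 in both cell types and 18 in neither. For scale, of all 13559 high-coverage promoters 109 were depleted in DCs only, 2378 in both cell types and 1046 in neither. Counts this small were not tested. Promoters depleted in DCs only were also found on the adhesion list (Krtap2-4 and Pcdhga11) and on the transcription factor list (Sox5).

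The sequence of the members was near that of all promoters. A CpG island was counted where the 200 bp on either side of the TSS held over 50% GC with CpG at more than 0.6 of the number expected. It was present at 66 members (61.7%, Wilson interval 52.2 to 70.3, counting error only), against 56.1% of all, 36.7% of the promoters depleted in DCs only, 86.9% of those depleted in both and 22.3% of those in neither. CpG-island members had a median ratio under 0.5 in the 11 libraries in 31 of 66 cases (47.0%, against 52.7% of all island promoters) and the others in 9 of 41 (22.0%, against 15.8%). From -250 to 50 bp, CCAAT was found on either strand in 40.2% of members (all promoters 37.4%), GGGCGG in 53.3% (51.8%), the ETS letters CGGAAG in 28.0% (24.6%), the CREB/ATF letters TGACGT in 14% (9.88%), the RUNX letters TGTGGT in 9.35% (14.6%), TATAAA in 7.48% (9.71%), TGANTCA in 5.61% (6.45%), the TEAD letters CATTCCA in 4.67% (3.26%) and the CArG box of SRF in 0.935% (1.19%). These are counts of letters, and no site was shown to be bound.

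TNF and the BAF knock-down were then compared over the 8 single H3K4me1 libraries. The ratio was taken as log2 with 0.1 added to both means and fitted with limma over all 13012 high-coverage promoters that had values in every library, 104 members among them. After TNF no promoter passed an adjusted p of 0.05 in either direction (0% called). At an unadjusted p under 0.05 there were 724 promoters (5.56%), of which 9 were members (8.65% of members). The median log2 difference of the members was -0.17 and that of all promoters -0.09. The former was -0.29 without control cells after TNF, replicate 1, -0.06 without replicate 2 of the same group and -0.07 without BAF knock-down cells after TNF, replicate 1. Ranges of the 4 stimulated and 4 non-stimulated libraries did not overlap, with the stimulated ones lower, for 4 members (3.85%, background 1.78%), namely Cdc40, Plekhh2, Catsper4 and Irx5, and with the stimulated ones higher for 1, Trdmt1 (0.962%, background 0.915%).

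Cdc40, a splicing factor, had the smallest p of the members. Its ratio in non-stimulated cells was 1.24 and 0.850 (control) and 2.00 and 1.32 (BAF knock-down), and after TNF it was 0.820 and 0 (control) and 0 and 0 (BAF knock-down). The log2 difference was -3.13 ± 0.82 (SE), with a limma adjusted p of 0.64. Irx5 had 1.54, 0.763, 0.844 and 0.428 in non-stimulated cells and 0.264, 0, 0.277 and 0 after TNF, with a log2 difference of -2.12 ± 0.64 and a limma adjusted p of 0.77.

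With the BAF knock-down no promoter passed either (0% called), and 652 promoters (5.01%) and 6 members (5.77% of members) had an unadjusted p under 0.05. The median log2 difference was 0.03 for members (-0.19 to 0.07 without each library) and 0.02 for all. The deposited names of the BAF knock-down replicate 1 libraries give another amount of MNase. The fit held no term for that amount, so its part in the knock-down difference was not tested. Ranges did not overlap for 1 member that was higher (background 1.36%) and for 1 that was lower (background 1.24%). The first, 3010001F23Rik, had a ratio of 0 in all 4 control libraries and of 3.10, 2.77, 1.08 and 1.23 in the 4 BAF knock-down libraries, with a limma adjusted p of 0.348. It also had 2.31, 0.926 and 2.33 in the pol-II libraries, which are from cells without the knock-down. The second, Gm10069, had 0.389, 0.804, 2.54 and 0.888 in control cells and 0.189, 0, 0 and 0 in the knock-down, with a limma adjusted p of 0.716. For the interaction of TNF with the knock-down no promoter passed (0% called). At an unadjusted limma p under 0.05 there were 737 promoters (5.66%) and 6 members (5.77% of members). The member with the smallest p there was Trp53i11, with 1.86 and 1.04 before and 0 and 0 after TNF in control cells, and 0.00639 and 0 before and 0.929 and 1.36 after TNF in the knock-down (limma adjusted p 0.319).

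Chromatin recovered through S7P was compared with H3K4me1 chromatin of control fibroblasts, both after TNF, with 2 libraries each. Of 13024 promoters none passed in limma (0% called), and 1240 (9.52%) had an unadjusted p under 0.05, 14 of them members (13.3% of members), 11 with a higher and 3 with a lower ratio in S7P chromatin. The median log2 difference was 0.47 for members and 0.16 for all promoters. Without H3K4me1 replicate 2 these were 0.17 and -0.03, and without S7P replicate 1 they were 0.21 and 0.24. Without H3K4me1 replicate 1, 28 members (26.7%, background 15.1%) had an unadjusted p under 0.05, and without S7P replicate 1, 9 (8.57%, background 7.35%). G3bp1, a core protein of stress granules, had the smallest p: 1.88 and 1.48 in S7P chromatin against 0.00760 and 0 in H3K4me1 chromatin, with a log2 difference of 3.80 ± 0.65 and a limma adjusted p of 0.368. The antibody, paired-end sequencing, a fragment size filter and the cells (only those for H3K4me1 are labelled as controls of the knock-down) all changed together between these libraries and cannot be told apart.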

How the data were processed

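The deposited occupancy values are a signal per 10 bp bin from -1000 to 1000 bp of each TSS: the authors aligned reads to mm9 (with bowtie per the methods, whereas the submitters' processing notes name Bowtie2 and bedtools), counted fragments per bin, divided them by the total of the surrounding 1000 bp and smoothed over 50 bp. An empty cell was read as 0. The 4 pooled files reach 20.0 and the single ones 10.0, as a sum of 2 replicates would. Because each promoter is scaled to its own surroundings, the signal holds no depth, no total per library could be read from it, and ratios of weakly covered promoters move in coarse steps. Of all bins at high-coverage promoters, 63.6% to 90.2% per library held a signal above 0. The coverage score and the 2 expression columns are also a signal as deposited, and the expression units were set by the authors.

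The NDR ratio was computed per library, without promoters whose flank was 0. Whether row order and strand are as assumed was checked on 68 pairs of TSSs a whole number of bins apart on the same strand, of which 68 matched when shifted downstream and 0 upstream (correlation above 0.99). Of the TSSs, 87.5% lay within 50 bp of a GENCODE vM1 transcript start of the mm9 assembly. Symbols come from RefSeq by transcript accession (25379 of 25881, and 106 of 107 members). Fits used limma 3.58.1 in R 4.3.3 with Benjamini-Hochberg adjustment. Tested on simulated data for the TNF comparison over 13012 promoters, they recovered 0% of 200 promoters shifted by 1 or 2 on the log2 scale and 84.5% of those shifted by 4. The simulated noise was normal and had no floor, whereas in the data an empty window sets a lowest value. The 84.5% therefore need not hold for falls of the ratio in the data. Replicates are biological per the study's reporting summary, and the labels only number them.

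The members and gene lists were chosen with earlier results of these data known. Named members are those with the 12 lowest and 5 highest medians over the 11 libraries outside the rule, the 6 highest in fibroblast and 4 in DC expression, those on the lists, those nearest the thresholds, and those with the smallest p or ranges that did not overlap. Members named for a large response to stimulation were not included, because the 2 columns that hold it are the authors' own comparison (log2 expression differences upon stimulation) and were not used. Alternatives were another NDR window, both flanks, other thresholds, coverage and pseudocounts, a replicate block and leaving out each library.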

Additional observations from a re-analysis of the deposited data

How the results depend on the processing

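The share of members under 0.5 in the 11 libraries stayed within its spread over libraries under all 5 alternatives (40.9% to 49.9%) and without each library in turn (41.8% to 45.4%). Its mean excess over all promoters was 9.34 points with stricter thresholds (under 0.4 and above 1.0, 43 members) and 0.347 with looser ones (under 0.6 and above 0.8, 254 members), 1.90 with the window from -100 to 50 bp, where members were above the background in 6 of 11 libraries, and 2.49 to 4.68 without each library. The share of members active in fibroblasts only was 9.35% with activity above 0.1 times the mean (4.64% of all promoters) and 11.2% with the window from -100 to 50 bp. Of the members active in fibroblasts only, the share with a median under 0.5 was 50% to 80% over the settings and 64.7% to 70.6% without each library. Over all promoters of that class it was 28.4% to 35.4% over the settings. The 50% rested on 2 of 4 and on 5 of 10 members, and the 80% on 12 of 15. The share of CpG islands was 72.1% with stricter thresholds. With the window from -100 to 50 bp the median was 0.715 for Zfp280c, 0.271 for Plpp1, 0.485 for Miga2, 0.545 for Fbxo38, 0.587 for Tcp1, 0.163 for Bud31, 0.671 for Irx5, 0.178 for Col6a1, 0.331 for Gcnt4, 0.244 for Rhoc, 1.08 for Ciita and 0.932 for Zdhhc6. The cause of these shifts was not tested.

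The 4 limma comparisons called 0 promoters under each alternative (0 to 0 without each library in turn), except that TNF called 17 (1 higher, 16 lower, no member) with a pseudocount of 0.02. Promoter by promoter, replicate numbers showed no pairing of the libraries, with deviations from the group means correlated between -0.010 and 0.021. Such correlations do not see a shift of a whole library. In control cells, 34.8% and 36.1% of all promoters were under 0.5 in replicate 1 (before and after TNF), and 44.5% and 44.7% in replicate 2. With the replicate block each comparison called 0 promoters. Without each library, members at an unadjusted limma p under 0.05 numbered 5 to 13 for TNF (4.81% to 12.5%, background 5.12% to 6.60%). For the knock-down they numbered 3 to 10 (2.88% to 9.62%, background 4.57% to 5.49%). For the interaction, where 1 library is then left in a group, the median log2 difference was -0.63 to -0.28 for members. Over all promoters it was -0.30 to -0.03. The simulation was made for the TNF comparison alone, where no shift of 2 on the log2 scale was called.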
